A study of Mus musculus with 203 samples.

Results

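Gene expression in the airways of mice exposed to cigarette smoke alone was compared with expression in the airways of mice that breathed normal air. All 10 airway libraries titled PBS.CS and all 10 titled PBS.AIR at 11 weeks were taken by their titles, 20 of the 160 libraries at 11 weeks, beside which the series holds 43 libraries at 3 weeks. The mice of both groups were female Balb/C animals aged 18 to 20 weeks that received phosphate-buffered saline (PBS), the control for the house dust mite (HDM) extract of other groups, and none received HDM or dexamethasone (DEX). PBS.CS mice were exposed to cigarette smoke (CS) 2 times a day on 5 days a week for 8 weeks, from week 4 to week 11, while PBS.AIR mice breathed air (AIR). Smoke against air was also taken from 3 other settings of the same series for comparison: the parenchyma of PBS mice, the airway of HDM-treated mice, and the airway of PBS mice given DEX during week 11. Each of those groups holds 10 libraries. The labels give every library its own code, such as X13, and do not tie a code to a mouse. Each library was therefore taken as a separate sample, and p-values measure the spread between libraries.

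Cigarette smoke reaches the conducting airway as a mixture of particles, oxidants and polycyclic aromatic hydrocarbons. Such hydrocarbons bind the aryl hydrocarbon receptor (AhR), which switches on phase I enzymes such as Cyp1a1, while oxidants and electrophiles release the transcription factor NRF2, which switches on antioxidant and phase II enzymes such as Nqo1. Epithelial cells and macrophages that meet smoke also secrete chemokines that draw neutrophils and monocytes, and macrophages that take up particles and lipid change their own gene programme. An airway dissected from the lung holds epithelium, smooth muscle, cartilage, immune cells and attached tissue together. In such bulk RNA a lower level can mean fewer cells of a type or less RNA per cell, and the 2 cannot be told apart.

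Total counts were 23368612 to 34962379 in PBS.AIR libraries and 24455915 to 33235195 in PBS.CS libraries. Levels are given as CPM, counts relative to the effective size of the library, and differences as log2 fold changes (log2FC, PBS.CS less PBS.AIR) with their standard error (SE). A gene was called higher or lower when the limma-voom adjusted p-value was under 0.05 and the log2FC was at least 1 or at most -1. The airway label was borne out by its markers: Scgb1a1, the secreted protein of club cells, ranged from 39893 to 57154 CPM in PBS.AIR and from 33078 to 58564 CPM in PBS.CS libraries, and Foxj1, the master factor of ciliated cells, from 126.2 to 319 and from 131.4 to 237 CPM. The libraries also carried tissue next to the airway in unequal amounts. Summed over 18 cardiac muscle markers the level ranged from 518 to 5132 CPM in PBS.AIR and from 528 to 3155 CPM in PBS.CS libraries. For 15 cartilage markers the corresponding ranges were 7.94 to 82.8 CPM and 5.50 to 119.3 CPM, and for 13 alveolar type II markers they were 11627 to 33923 CPM and 15794 to 34927 CPM.

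The largest axis of variation among the 20 libraries did not separate smoke from air, and the second did. The first principal component of the 500 most variable genes held 39.9% of the variance, ran between genes of brown fat and cartilage such as Ucp1 and Acan at one end and Awat1 and Cxcr1 at the other, and placed both groups across its whole length (adjusted p = 0.64, permutation test of 100000 resamples). The second component held 20.8% of the variance. PBS.AIR libraries scored from -22.97 to -2.0 on it and PBS.CS libraries from 6.65 to 19.94, without overlap (adjusted p = 2.4e-04, 2-sided permutation test over 4 components).

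**Figure D1:**
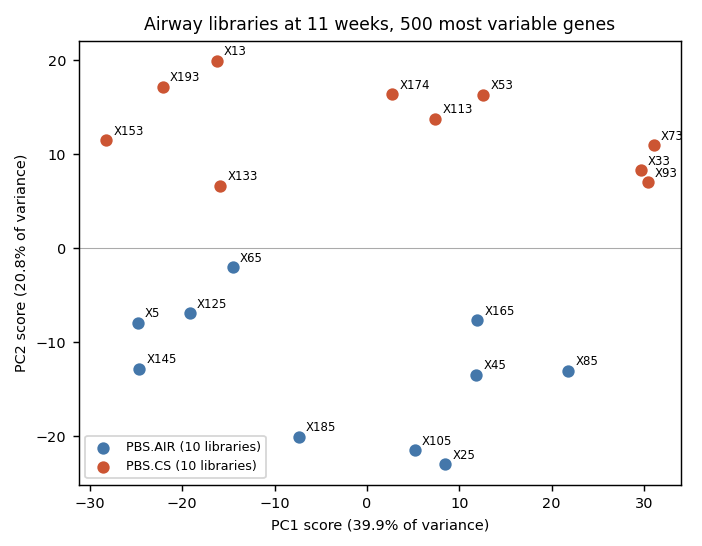
Scores of the 20 airway libraries on the first 2 principal components (horizontal axis PC1, vertical axis PC2, both in units of the component score), each point 1 library labelled with its code, blue for PBS.AIR and red for PBS.CS. All 10 PBS.CS libraries lie above 0 on PC2 and all 10 PBS.AIR libraries below it, while both groups spread along PC1.

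Of 18015 genes tested, 424 were called in smoke-exposed airways, 288 of them higher (1.6% of genes) and the rest lower (0.755%). Without the fold limit, 1210 genes were higher (6.72%) and 862 were lower (4.78%) at the adjusted p-value. The 10 PBS.CS libraries did not overlap the 10 PBS.AIR libraries for 78 of the 288 genes called higher and 18 of those called lower, against 0.633% and 0.133% of all genes tested. Among genes with a mean of at least 1 CPM in either group, the 10 largest rises were in Awat1, Cd200r2, Cxcl5, Saa3, Vnn1, Slc26a4, Cyp1a1, Orm2, Lcn2 and Cxcr1, with log2FC from 2.77 to 6.09. The 10 largest falls were in Clca1, Cst8, Bcan, Upk1a, Abca12, Tbata, Kcnip4, Slc38a3, Hamp and Klre1, with log2FC from -3.55 to -1.71. The rises thus held chemokine, acute phase, xenobiotic and macrophage genes, which are described by role in the paragraphs that follow.

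Genes of the AhR and NRF2 pathways formed the first group. Of 12 AhR pathway genes tested, 7 rose, 5 of them by a log2FC of at least 1, and none fell, with a median log2FC of 0.65 against 0.002 over all genes. Cyp1a1, the monooxygenase that oxidises polycyclic aromatic hydrocarbons, ranged from 2.94 to 10.7 CPM (median 5.21) in PBS.AIR and from 17.1 to 189.02 CPM (median 50.04) in PBS.CS libraries. Every smoke-exposed library lay above every air-exposed one, and the smoke-exposed libraries themselves differed widely (log2FC 3.19, SE 0.70, adjusted p = 7.7e-04). Ahrr, the repressor that AhR induces against itself, went from 0.193 to 0.794 CPM (median 0.428) without smoke to 1.68 to 3.26 CPM (median 2.61) with it. Its groups also stayed apart, and it was far more even among smoke-exposed libraries than Cyp1a1 (log2FC 2.45, SE 0.25, adjusted p = 9.8e-12). Cyp1b1, a second AhR-induced monooxygenase, rose by 1.30 (SE 0.18, adjusted p = 8.9e-08) and the glucuronosyltransferase Ugt1a6a by 1.07 (SE 0.16, adjusted p = 9.8e-07) on the log2 scale. The genes of the receptor and its partner, Ahr (log2FC 0.01, adjusted p = 0.97) and Arnt (log2FC -0.11, adjusted p = 0.24), did not pass the test. Ugt1a6a and Ugt1a6b share most of their sequence, so the split of reads between them is uncertain.

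Of 32 NRF2 and antioxidant genes tested, 16 rose and 1 fell, with a median log2FC of 0.32. Nqo1, a quinone reductase that both pathways induce, ranged from 7.25 to 11.7 CPM (median 8.53) in PBS.AIR and from 13.02 to 160.1 CPM (median 30.6) in PBS.CS libraries. The groups did not overlap, although the lowest smoke-exposed library was close to the highest air-exposed one (log2FC 2.19, SE 0.37, adjusted p = 9.9e-06). Slc7a11, the cystine transporter that feeds glutathione synthesis, rose from a median of 6.28 to 28.9 CPM (log2FC 2.03, SE 0.27, adjusted p = 3.2e-08), and 9 of 10 smoke-exposed libraries lay above all air-exposed ones. Akr1b8, an aldo-keto reductase, rose by 1.25 on the log2 scale (SE 0.20, adjusted p = 3.1e-06). Most other rises were smaller than 2-fold, such as the ferritin light chain gene Ftl1 (log2FC 0.63), the haem oxygenase gene Hmox1 (log2FC 0.60, adjusted p = 0.037, not past the threshold in 15 of 34 alternatives, such as 0.073 by limma-voom without PBS.CS replicate X33), Srxn1 (log2FC 0.47), Gclc (log2FC 0.46) and Txnrd1 (log2FC 0.39). The 1 gene that fell was Gsta2, a glutathione transferase (log2FC -0.95, SE 0.15, adjusted p = 1.7e-06). Nfe2l2, which encodes NRF2 itself, had a log2FC of -0.06 (adjusted p = 0.73).

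The promoters of the 4 genes of these lists with the largest rises are shown as the 250 bases before the RefSeq start (build GRCm38.p6), written 5′ to 3′ on the strand of the gene, because AhR and NRF2 act through short elements in DNA. Capitals mark the AhR element core GCGTG on either strand, and the antioxidant element core TGACNNNGC was searched in the same way and had no match in these 4 windows. The 2 motifs do not overlap one another here.
Cyp1a1, chr9:57697363-57697612, plus strand: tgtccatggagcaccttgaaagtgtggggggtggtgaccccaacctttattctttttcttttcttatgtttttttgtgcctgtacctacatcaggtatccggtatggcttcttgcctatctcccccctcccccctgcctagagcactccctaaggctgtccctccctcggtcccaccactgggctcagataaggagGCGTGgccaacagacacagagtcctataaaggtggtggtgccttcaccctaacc
Ahrr, chr13:74292332-74292581, minus strand: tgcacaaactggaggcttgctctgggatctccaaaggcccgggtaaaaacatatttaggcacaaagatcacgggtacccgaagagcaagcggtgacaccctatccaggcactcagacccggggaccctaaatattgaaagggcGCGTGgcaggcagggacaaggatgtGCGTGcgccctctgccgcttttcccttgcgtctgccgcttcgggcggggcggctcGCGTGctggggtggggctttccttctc
Nqo1, chr8:107403206-107403455, minus strand: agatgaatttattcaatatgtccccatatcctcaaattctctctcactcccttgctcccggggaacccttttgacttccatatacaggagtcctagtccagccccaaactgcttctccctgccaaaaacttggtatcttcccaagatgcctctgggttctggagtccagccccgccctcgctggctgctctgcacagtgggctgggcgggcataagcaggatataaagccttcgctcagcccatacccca
Slc7a11, chr3:50443614-50443863, minus strand: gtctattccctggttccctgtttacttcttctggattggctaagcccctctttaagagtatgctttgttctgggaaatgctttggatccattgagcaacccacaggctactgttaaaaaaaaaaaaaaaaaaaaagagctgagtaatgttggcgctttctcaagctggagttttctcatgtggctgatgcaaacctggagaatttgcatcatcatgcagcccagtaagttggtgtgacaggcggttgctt
The AhR element core occurred 1 time in the Cyp1a1 window, 3 times in the Ahrr window and 0 times in those of Nqo1 and Slc7a11. Of 32851 promoter windows of the same length, 28.2% held it at least 1 time and 10.2% held the antioxidant core. The windows are short, and a match describes the letters alone.

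Among other enzymes of xenobiotic metabolism falls outnumbered rises. Of 30 such genes tested, none rose and 7 fell by limma-voom, with a median log2FC of -0.19, while 1 was higher by edgeR and by DESeq2 and 4 were higher with the alveolar content of each library as a covariate. Cyp4b1, another monooxygenase of the airway epithelium, fell from 465 to 769 CPM (median 558) in PBS.AIR to 337 to 421 CPM (median 372) in PBS.CS, without overlap (log2FC -0.61, SE 0.14, adjusted p = 0.0012). The carboxylesterase gene Ces1d fell by 0.67 (SE 0.13, adjusted p = 8.6e-05) on the log2 scale. Fmo2, a flavin monooxygenase, had a log2FC of -0.69 (adjusted p = 0.043) and was not past the threshold in 17 of 34 alternatives, with an adjusted p of 0.081 by limma-voom without PBS.AIR replicate X185. Cyp2f2, the abundant monooxygenase of club cells, went from a median of 4061 to 2634 CPM (log2FC -0.51, SE 0.14, adjusted p = 0.0081). Without the 6 libraries over 30 CPM of cartilage markers, an alternative added after the data were seen, the Cyp2f2 log2FC was -0.45 with an adjusted p of 0.08 by limma-voom. The summed club cell level ranged from 54941 to 105403 CPM in PBS.AIR and from 47124 to 78847 CPM in PBS.CS libraries, and the part of club cell content in these falls was not tested.

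**Figure D2:**
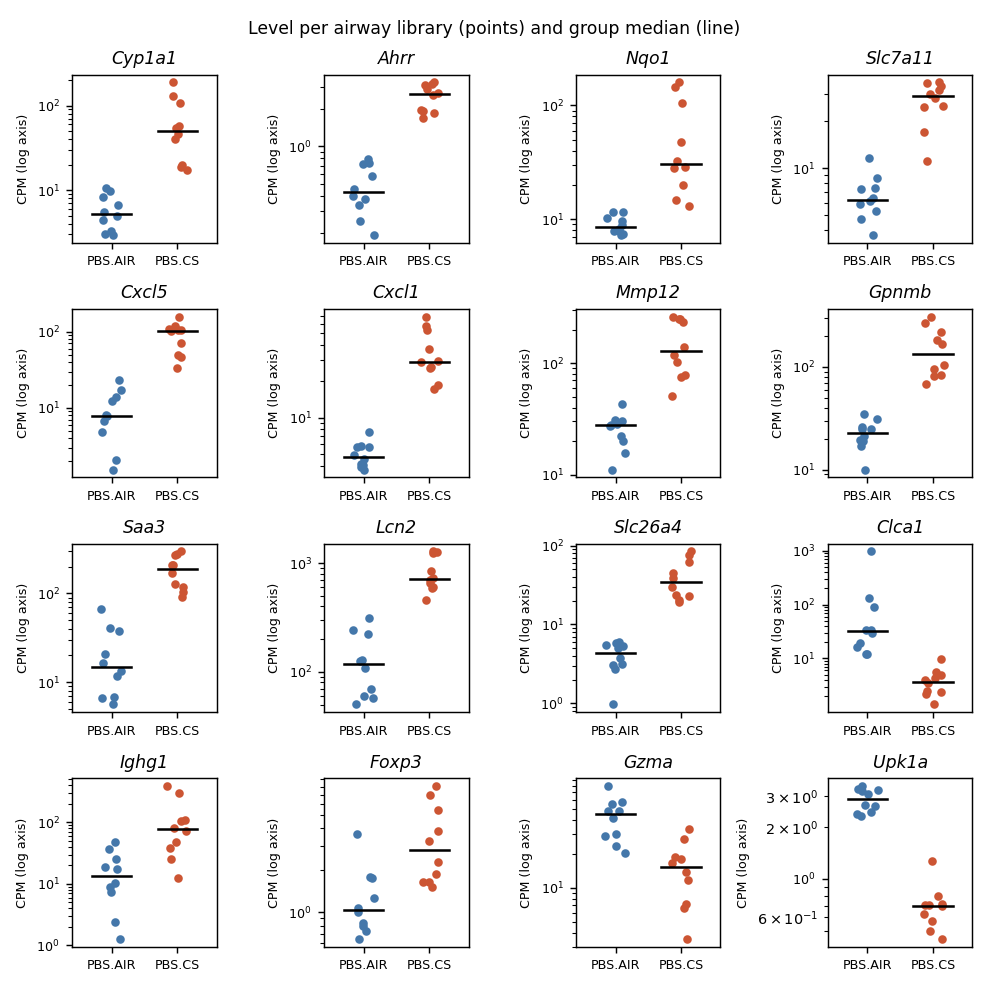
Level of 16 genes in each airway library (points, CPM on a log axis) with the group median (black line), blue for the 10 PBS.AIR and red for the 10 PBS.CS libraries. Cyp1a1, Ahrr, Nqo1, Cxcl5, Cxcl1, Mmp12, Gpnmb, Saa3, Lcn2 and Slc26a4 are higher in all PBS.CS libraries than in any PBS.AIR library, Clca1 and Upk1a are lower in all of them, and Slc7a11, Ighg1, Foxp3 and Gzma overlap between the groups.

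Chemokines and growth factors that act on neutrophils showed the highest median of any list. Of 16 genes tested 11 rose, 10 of them by a log2FC of at least 1, none fell, and the median log2FC was 1.54. The CXCR2 ligand Cxcl5 ranged from 1.54 to 22.96 CPM (median 7.87) in PBS.AIR and from 32.9 to 156.6 CPM (median 103.02) in PBS.CS libraries, a fold of 11 without overlap (log2FC 3.45, SE 0.50, adjusted p = 2.2e-07). Its neighbours on chromosome 5, Cxcl1 and Cxcl2, behaved alike: Cxcl1 rose from 3.70 to 7.57 CPM (median 4.73) to 17.1 to 68.7 CPM (median 29.2), again without overlap (log2FC 2.74, SE 0.38, adjusted p = 8.2e-08). Cxcl2 was a scarcer transcript, with medians of 1.10 and 5.45 CPM (log2FC 2.60, SE 0.41, adjusted p = 1.8e-06). The 3 genes lie within GRCm38 chr5:90759360-90905938. The inflammatory chemokine gene Ccl3 rose by 2.73 (SE 0.40, adjusted p = 4.4e-07) and Csf2, the gene of the growth factor GM-CSF, by 1.86 (SE 0.33, adjusted p = 2.1e-05). The cytokine genes Tnf (log2FC 1.08), Il1b (log2FC 1.07) and Il6 (log2FC 1.17) rose as well. Il17a (log2FC 1.98, adjusted p = 0.18), Il17f (log2FC 2.02, adjusted p = 0.068) and Csf3 (log2FC 1.22, adjusted p = 0.22) did not pass the test. By edgeR the adjusted p was 0.024 for Il17a and 0.014 for Il17f, and with the alveolar covariate it was 0.028 for Csf3 (log2FC 1.78) by limma-voom. Il6 was at an adjusted p of 0.051 by limma-voom without PBS.CS replicate X53.

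Neutrophil genes were higher too, though less separately. Of 17 tested, 13 rose, 10 of them by a log2FC of at least 1, none fell, and the median log2FC was 1.24. S100a8, a subunit of calprotectin in neutrophil cytosol, ranged from 10.7 to 92.3 CPM (median 20.1) in PBS.AIR and from 28.5 to 108.8 CPM (median 63.4) in PBS.CS libraries. The groups overlapped, with 2 of 10 smoke-exposed libraries above all air-exposed ones (log2FC 1.24, SE 0.30, adjusted p = 0.0029). Cxcr2, the receptor of the chemokines above, rose by 1.22 (SE 0.27, adjusted p = 8.1e-04), and Csf3r, the receptor of G-CSF, by 1.32 (SE 0.26, adjusted p = 1.7e-04). Il1r2, the decoy receptor for interleukin-1, rose without overlap from a median of 1.32 to 6.33 CPM (log2FC 2.02, SE 0.37, adjusted p = 3.1e-05). Cxcr1 also rose without overlap, at low levels (medians 1.03 and 7.00 CPM, log2FC 2.77, SE 0.70, adjusted p = 0.0039). It was not past the threshold with a minimum of 10 CPM in 9 libraries (adjusted p = 0.22) or with library codes over X120 alone (0.47, both by limma-voom). The granulocyte surface marker Ly6g stayed under 1 CPM in all libraries (log2FC 1.46, adjusted p = 0.017), and it was not past the threshold without PBS.AIR replicate X185 (adjusted p = 0.068 by limma-voom). Among granule genes, the cathelicidin gene Camp rose (log2FC 1.83, adjusted p = 8.5e-04), while Mpo, the gene of myeloperoxidase (log2FC 0.05, adjusted p = 0.97), and Ltf, the gene of lactoferrin (log2FC 0.18, adjusted p = 0.87), did not pass the test. With the alveolar covariate Ltf did (log2FC 0.82, adjusted p = 0.03 by limma-voom). The summed neutrophil level ranged from 473 to 2055 CPM in PBS.AIR and from 625 to 2292 CPM in PBS.CS libraries, and Ltf, which epithelium also makes, ranged from 156.1 to 1905 and from 263 to 2054 CPM within it.

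Macrophage genes rose in a broad block. In the list of 35 lipid-laden macrophage and phagocyte genes, 23 rose, 16 of them by a log2FC of at least 1, and 1 fell, with a median log2FC of 0.71. Gpnmb, a lysosomal glycoprotein of lipid-laden macrophages, ranged from 9.93 to 34.7 CPM (median 22.9) in PBS.AIR and from 67.9 to 308 CPM (median 135.04) in PBS.CS libraries (log2FC 2.67, SE 0.26, adjusted p = 2.8e-12). Mmp12, macrophage elastase, ranged from 11.1 to 43.4 CPM (median 27.8) and from 50.7 to 260.1 CPM (median 129.2), respectively (log2FC 2.48, SE 0.26, adjusted p = 3.2e-11). Neither gene overlapped between the groups, and the same held for osteopontin, Spp1 (log2FC 2.27, SE 0.31, adjusted p = 8.5e-08), the scavenger receptor Msr1 (log2FC 1.97, SE 0.21) and the lipid sensor Trem2 (log2FC 1.93, SE 0.26). Marco, a scavenger receptor for inhaled particles, rose by 1.87 (SE 0.36, adjusted p = 8.0e-05) and Ctsk, the gene of cathepsin K, by 1.72 (SE 0.22, adjusted p = 8.9e-09). The lysosomal protease gene Ctsd rose by 1.26 and the lipid droplet gene Plin2 by 0.71, both without overlap. Fabp1, a fatty acid binding protein, was the 1 member that fell (log2FC -1.35, SE 0.40, adjusted p = 0.017), and it missed the threshold with edgeR (adjusted p = 0.088) and DESeq2 (adjusted p = 0.079). Siglecf (log2FC 0.35, adjusted p = 0.53) and Ear1 (log2FC -0.22, adjusted p = 0.76), which resident alveolar macrophages and eosinophils express, did not pass the test. They do not stand for all genes of these cells. In the list of 21 general macrophage markers 15 rose and none fell, and their summed level ranged from 4684 to 9703 CPM in PBS.AIR and from 8354 to 14057 CPM in PBS.CS libraries.

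The 2 largest log2FC of all belonged to scarce transcripts. Awat1, an acyltransferase that makes wax esters, was at 0 in 6 PBS.AIR libraries and at most 0.212 CPM in the others, with 12 counts over the whole group, and ranged from 0.748 to 5.86 CPM (median 2.71) in PBS.CS libraries (log2FC 6.09, SE 1.31, adjusted p = 5.5e-04). Cd200r2, a receptor of the CD200R family on myeloid cells, had 15 counts over the PBS.AIR group and 0.627 to 4.23 CPM (median 1.57) in PBS.CS libraries (log2FC 5.03, SE 0.72, adjusted p = 2.2e-07). Both genes were detected in every smoke-exposed library at levels above all air-exposed ones. With so few counts in the air group, the size of these fold changes depends on the fit.

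Proteases and their inhibitors rose together. Of 28 genes of the list 16 rose, 9 of them by a log2FC of at least 1, and 2 fell. Besides Mmp12 and Ctsk, the rises included the serine protease inhibitor genes Serpina3n (log2FC 1.78, SE 0.23, adjusted p = 1.6e-08) and Slpi (log2FC 1.31, SE 0.21, adjusted p = 3.8e-06), the metalloprotease genes Mmp13 (log2FC 1.54), Mmp8 (log2FC 1.46, adjusted p = 0.031) and Mmp9 (log2FC 0.87, adjusted p = 0.031), and their inhibitor gene Timp1 (log2FC 1.19, adjusted p = 0.021). Mmp8 and Mmp9 are also neutrophil genes and were not past the threshold in 10 and 12 alternatives, with adjusted p-values of 0.077 and 0.057 by limma-voom without PBS.AIR replicate X145. Mmp13 missed it without the libraries over 30 CPM of cartilage markers (log2FC 1.33, adjusted p = 0.054 by limma-voom). It also missed it with library codes up to X120 alone (log2FC 0.79, adjusted p = 0.29) and over X120 alone (log2FC 2.72, adjusted p = 0.063). The inhibitor gene Timp3 fell by 0.49 (SE 0.12, adjusted p = 0.0017) on the log2 scale. Structural matrix genes passed the test at about the share of all genes tested, of which 6.72% rose and 4.78% fell. Of 31 collagen and matrix genes 2 rose, the crosslinking enzyme gene Lox (log2FC 0.91, adjusted p = 2.8e-04) and the microfibril gene Fbn1 (log2FC 0.61, adjusted p = 3.2e-04). The 1 that fell was Fbln2 (log2FC -0.68, adjusted p = 0.03), which missed the threshold without PBS.AIR replicate X145 (adjusted p = 0.076 by limma-voom).

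Acute phase and complement genes rose in 16 of 28 cases, 10 of them by a log2FC of at least 1, and none fell (median log2FC 0.69). Saa3, a serum amyloid A made in lung epithelium and macrophages, ranged from 5.59 to 66.2 CPM (median 14.95) in PBS.AIR and from 91.1 to 298 CPM (median 189.6) in PBS.CS libraries (log2FC 3.44, SE 0.35, adjusted p = 4.1e-12). Lcn2, a siderophore-binding protein, ranged from 50.1 to 313 CPM (median 116.8) and from 461 to 1278 CPM (median 712), and was the second smallest p-value among the rises (log2FC 2.80, SE 0.24, adjusted p = 2.0e-14). Neither gene overlapped between groups. The orosomucoid gene Orm2 rose by 3.03 (SE 0.47, adjusted p = 1.1e-06), and its close copy Orm1 by 1.82 (SE 0.32, adjusted p = 1.4e-05). The near-identical serum amyloid genes Saa1 (log2FC 3.00, adjusted p = 0.0029) and Saa2 (log2FC 2.91, adjusted p = 2.6e-04) rose too, and the split of reads within each of these pairs is uncertain. Pigr, the receptor that carries immunoglobulin A across the epithelium, more than doubled from a median of 374 to 987 CPM (log2FC 1.18, SE 0.13, adjusted p = 1.4e-10). Complement components rose by less than 2-fold, with C3 at a log2FC of 0.60 and C1qa at 0.81.

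Among chemokines for monocytes and lymphocytes 7 of 20 rose and none fell. Ccl2, the main monocyte attractant, ranged from 1.43 to 3.98 CPM (median 2.54) in PBS.AIR and from 5.93 to 19.1 CPM (median 12.02) in PBS.CS libraries, without overlap (log2FC 2.02, SE 0.29, adjusted p = 2.4e-07). The CCR4 ligands Ccl22 (log2FC 1.67, SE 0.29, adjusted p = 1.2e-05) and Ccl17 (log2FC 1.28, SE 0.25, adjusted p = 1.8e-04) and the fractalkine receptor Cx3cr1 (log2FC 1.44, SE 0.20, adjusted p = 5.5e-08) rose too. Il12b, the shared subunit of interleukin-12 and interleukin-23, rose from a median of 0.457 to 2.53 CPM (log2FC 2.21, SE 0.33, adjusted p = 3.6e-07), and Il1rn, the interleukin-1 receptor antagonist, from 12.2 to 37.2 CPM (log2FC 1.79, SE 0.30, adjusted p = 7.5e-06). In the interleukin and alarmin list 6 of 21 genes rose and 2 fell. Il4 fell from a median of 0.364 to 0.134 CPM, a very low level in both groups (log2FC -1.26, adjusted p = 0.013), and Tslp fell by 0.58 on the log2 scale (adjusted p = 0.0043). Without the libraries over 30 CPM of cartilage markers the adjusted p was 0.17 for Il4 and 0.057 for Tslp by limma-voom. Il33 (log2FC 0.12, adjusted p = 0.77) and Il13 (log2FC -0.24, adjusted p = 0.89) did not pass the test. No gene rose and 1 fell among 28 interferon response genes, Cmpk2 (log2FC -0.32, adjusted p = 0.025, and 0.051 by limma-voom without PBS.CS replicate X193). In the MHC class II list 1 of 11 genes rose, the lysosomal protease gene Ctss that serves antigen loading (log2FC 0.66, adjusted p = 7.3e-04). Over all genes tested 6.72% rose and 4.78% fell.

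Lymphocyte genes moved in both directions. Of 24 T and NK cell genes 4 rose and 6 fell. The genes that fell belong to cytotoxic and natural killer cells: Gzma, the gene of granzyme A, went from 20.2 to 79.5 CPM (median 44.6) in PBS.AIR to 3.50 to 33.4 CPM (median 15.2) in PBS.CS libraries, 8 of which lay below all air-exposed ones (log2FC -1.64, SE 0.30, adjusted p = 4.3e-05). Ncr1, the NK cell receptor NKp46, fell by 1.35 (SE 0.26, adjusted p = 1.3e-04) and the perforin gene Prf1 by 0.99 (SE 0.29, adjusted p = 0.014) on the log2 scale, as did Klre1, an NK cell lectin outside the list, by 1.71 (SE 0.29, adjusted p = 7.6e-06). The genes that rose were the regulatory and activation markers Ctla4 (log2FC 1.47, SE 0.41, adjusted p = 0.0099), Foxp3 (log2FC 1.37, SE 0.41, adjusted p = 0.016), Pdcd1 (log2FC 1.07, adjusted p = 0.022, and 0.053 without PBS.CS replicate X13) and Icos (log2FC 0.92, adjusted p = 0.0049). Ctla4 was not past the threshold with library codes up to X120 alone (adjusted p = 0.052) or over X120 alone (0.38, both by limma-voom). Foxp3 overlapped between groups, from 0.639 to 3.66 CPM in PBS.AIR and from 1.51 to 8.05 CPM in PBS.CS libraries, and its adjusted p was 0.052 by limma-voom without the libraries over 30 CPM of cartilage markers. General T cell genes such as Cd3e (log2FC 0.54, adjusted p = 0.32), Cd4 (log2FC 0.68, adjusted p = 0.25) and Cd8a (log2FC 0.19, adjusted p = 0.85) did not pass the test, but with the alveolar covariate Cd3e (log2FC 0.88, adjusted p = 0.042 by limma-voom) and Cd4 (log2FC 1.21, adjusted p = 0.0074) did. Clec9a, a marker of cross-presenting dendritic cells, fell from a median of 14.2 to 7.31 CPM (log2FC -0.84, SE 0.17, adjusted p = 2.4e-04).

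Of 23 B and plasma cell genes 2 rose, both for antibody heavy chains, and none fell. Over all genes tested 6.72% rose, so a count of this size is near the share of all genes. Ighg1, the heavy chain of IgG1, ranged from 1.27 to 48.3 CPM (median 13.7) in PBS.AIR and from 12.6 to 388 CPM (median 76.6) in PBS.CS libraries, with 6 of 10 smoke-exposed libraries above all air-exposed ones (log2FC 2.70, SE 0.51, adjusted p = 6.2e-05). Igha, the heavy chain of IgA, went from a median of 96.8 to 208 CPM (log2FC 1.38, SE 0.25, adjusted p = 2.8e-05). Ighm, the heavy chain of IgM, had a log2FC of -0.04 (adjusted p = 0.97). The lymphoid tissue chemokines and lymphotoxins, 15 genes tested, had no member past the threshold in either direction with limma-voom, edgeR or DESeq2, and 4 at an unadjusted p under 0.05. With the alveolar covariate 6 were higher, and without the libraries over 30 CPM of cartilage markers 1 was.

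Epithelial genes of secretion changed selectively. Of 19 mucus genes 4 rose and 2 fell. Slc26a4, the anion exchanger pendrin, ranged from 0.970 to 6.02 CPM (median 4.39) in PBS.AIR and from 19.1 to 84.03 CPM (median 34.4) in PBS.CS libraries, without overlap (log2FC 3.30, SE 0.47, adjusted p = 1.4e-07). In the ion transport list, which also holds Slc26a4, 3 of 17 genes rose, among them the chloride channel gene Cftr by 0.98 (SE 0.21, adjusted p = 4.0e-04). Clca1, a secreted protein of goblet cells, fell without overlap, from 11.9 to 974 CPM (median 31.9) to 1.39 to 9.87 CPM (median 3.72). Its air-exposed group was stretched by replicate X5 at the top of that range (log2FC -3.55, SE 0.95, adjusted p = 0.0068), and without the 6 libraries over 30 CPM of cartilage markers the log2FC was -2.88 with an adjusted p of 0.082 by limma-voom. Clca1 was not past the threshold in 4 of 34 alternatives, the minimum of 10 CPM in 9 libraries among them (adjusted p = 0.14 by limma-voom). The trefoil factor gene Tff2 fell as well (log2FC -1.17, SE 0.35, adjusted p = 0.018), and was not past the threshold in 7 alternatives, without PBS.AIR replicate X5 (adjusted p = 0.057 by limma-voom) or PBS.CS replicate X73 (adjusted p = 0.062) among them. Gp2, a glycoprotein of secretory and M cells, rose (log2FC 2.19, SE 0.41, adjusted p = 4.8e-05). The gel-forming mucin genes Muc5ac (log2FC -0.21, adjusted p = 0.85) and Muc5b (log2FC -0.41, adjusted p = 0.43) and the goblet cell factor Spdef (log2FC -0.08, adjusted p = 0.87) did not pass the test. Retnla, a resistin-like molecule of airway epithelium and macrophages, rose from 63.2 to 461 CPM (median 133.6) to 514 to 1403 CPM (median 713), without overlap (log2FC 2.32, SE 0.29, adjusted p = 4.2e-09). Of 28 ciliated cell genes 5 fell, each by less than 2-fold, and none rose, while 4.78% of all genes tested fell. In all, 27 of the 28 had a log2FC below 0, with a median of -0.298. Of 13 alveolar type II genes 5 rose, among them the collectin gene Sftpd (log2FC 0.94, SE 0.17, adjusted p = 2.0e-05), while Sftpc, the defining surfactant gene, did not pass the test (log2FC 0.01, adjusted p = 0.99).

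Among the smallest p-values in the whole comparison were genes outside these lists. Clmp, a junctional adhesion molecule, rose from 7.99 to 16.2 CPM (median 10.8) to 22.2 to 48.5 CPM (median 36.9) and had the smallest p-value of all rises (log2FC 1.73, SE 0.14, adjusted p = 8.6e-16). Hpgds, the haematopoietic prostaglandin D synthase, rose by 1.59 (SE 0.14, adjusted p = 2.7e-14), and Vnn1, a pantetheinase, from a median of 5.27 to 54.9 CPM (log2FC 3.43, SE 0.33, adjusted p = 1.1e-12). Upk1a, a uroplakin, had the smallest p-value of the whole table, and fell from 2.32 to 3.44 CPM (median 2.89) to 0.449 to 1.27 CPM (median 0.701) (log2FC -2.05, SE 0.15, adjusted p = 4.7e-18). The thymus and testis gene Tbata (log2FC -1.99, SE 0.18), the potassium channel interacting gene Kcnip4 (log2FC -1.90, SE 0.18), the phosphatase subunit gene Ppp2r2c (log2FC -1.30, SE 0.15) and the brevican gene Bcan (log2FC -2.56, SE 0.30) also fell without overlap. These 5 falls lay at low levels, with PBS.AIR medians from 2.89 to 10.6 CPM. Lower still were Cst8, a cystatin (medians 1.05 and 0.118 CPM, log2FC -2.84, SE 0.43, adjusted p = 9.1e-07), and Abca12, a lipid transporter of keratinocytes (medians 1.01 and 0.181 CPM, log2FC -2.02, SE 0.34, adjusted p = 9.4e-06). Gdf15, a stress-induced cytokine, rose by 1.61 (SE 0.52, adjusted p = 0.031), and was not past the threshold in 10 alternatives, with an adjusted p of 0.073 by limma-voom without PBS.AIR replicate X145. Hamp is the gene of the iron hormone hepcidin (log2FC -1.76, adjusted p = 0.019), and Slc38a3 that of a glutamine transporter (log2FC -1.81, adjusted p = 0.0049). Both lost their calls with a cardiac muscle covariate (log2FC -0.86 and -0.69, adjusted p = 0.10 and 0.085 by limma-voom). They also lost them with the alveolar covariate (adjusted p = 0.074 and 0.066) and in the fit of the 20 libraries alone (0.1 and 0.052 by limma-voom). In all, Hamp was not past the threshold in 7 of 33 alternatives and Slc38a3 in 4. Cardiac muscle genes had a median log2FC of -0.83, and 0 of 16 tested passed the threshold by limma-voom, 1 by edgeR and 1 by DESeq2, with 10 at an unadjusted p under 0.05.

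**Figure D3:**
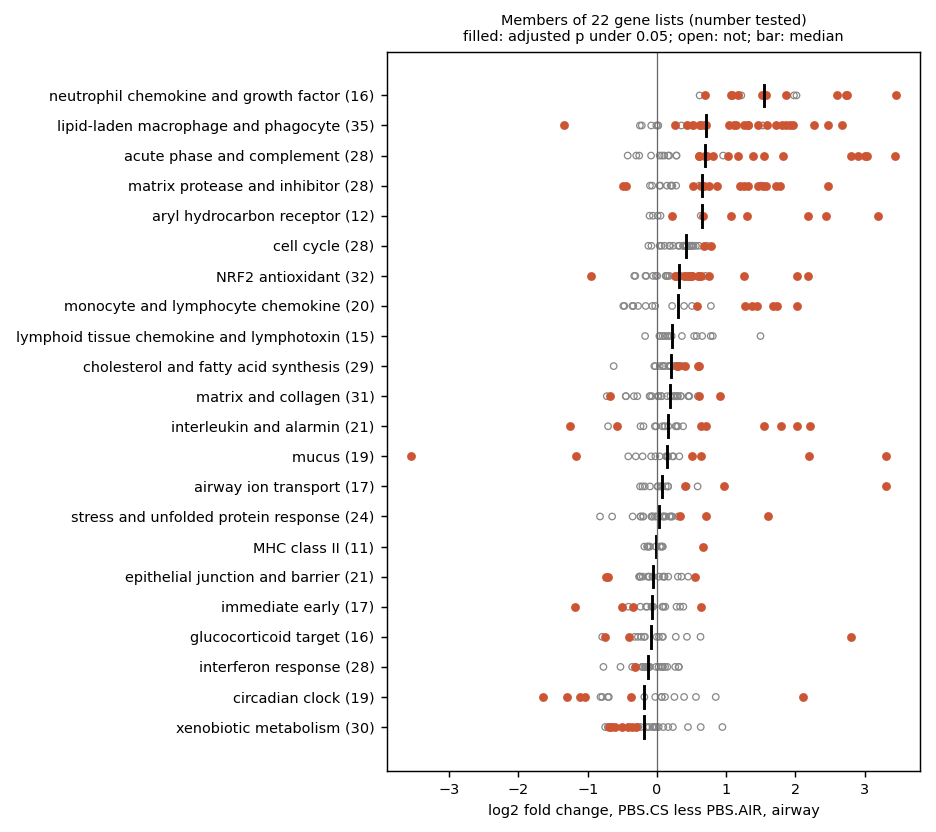
The log2 fold change of PBS.CS less PBS.AIR (horizontal axis) for each tested member of 22 gene lists (rows, ordered by median), filled points for members with an adjusted p under 0.05, open points for the others and a black bar at the median. The neutrophil chemokine list has the highest median (1.54), and the circadian clock and xenobiotic metabolism lists the lowest (-0.18 and -0.19).

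Clock genes differed between the groups and also within each of them. Of 19 tested 5 fell and 1 rose, with a median log2FC of -0.18. Per2, a repressor of the clock, went from 40.99 to 140.6 CPM (median 85.8) in PBS.AIR to 14.6 to 42.4 CPM (median 33.1) in PBS.CS libraries (log2FC -1.65, SE 0.32, adjusted p = 9.8e-05). The repressor gene Cry1 fell by 1.11 (SE 0.26, adjusted p = 0.0015). Nr1d1, whose product REV-ERB alpha represses Arntl, rose by 2.10 (SE 0.69, adjusted p = 0.032), but in PBS.AIR it stood between 2.68 and 6.33 CPM in 6 libraries and between 44.004 and 54.7 CPM in the other 4, and in PBS.CS between 14.3 and 19.4 CPM in 3 libraries and between 50.4 and 79.7 CPM in the other 7. Its call was lost with edgeR (log2FC 1.28, adjusted p = 0.19), with DESeq2 (adjusted p = 0.14) and when any of 12 single libraries was left out. The split followed the library codes: PBS.AIR libraries with codes up to X105 were low and those from X125 were high, and PBS.CS libraries were high up to X113 and low from X133, with X174 the exception. Fitted on codes up to X120 alone (6 libraries in each group) the Nr1d1 log2FC was 4.05, and on codes over X120 alone (4 in each group) it was -0.99 (adjusted p = 0.38 by limma-voom). These 2 fits were added after the values were seen. Per2 was lower with smoke in both (log2FC -1.49 and -1.88). The labels used here give no hour of collection, so hour and smoke exposure cannot be told apart for these genes.

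The smoke response was not even across the 10 smoke-exposed libraries, and its parts varied differently with tissue content. Nqo1 was highest in X153 (160 CPM), X193 (145.1 CPM) and X133 (104.3 CPM) and between 13.0 and 47.8 CPM in the other 7. Cyp1a1 was highest in the same 3 libraries, at 106.1 to 189.02 CPM against 17.1 to 58.01 CPM in the others. These 3 libraries had summed cartilage levels of 39.6 to 119.3 CPM against 5.50 to 25.4 CPM in the other smoke-exposed libraries, the lowest Nr1d1 levels, and alveolar type II sums of 15794 to 18475 CPM against 19035 to 34927 CPM in the others. Macrophage genes stood the other way round. Mmp12 ranged from 50.7 to 78.4 CPM in X133, X153 and X193 and from 102.6 to 260 CPM in the other 7, and Awat1 from 0.748 to 1.01 CPM against 1.07 to 5.86 CPM. The PBS.AIR libraries with cartilage sums over 30 CPM were X5, X125 and X145. Nqo1 stood at 8.92, 11.6 and 10.3 CPM in them, against 7.25 to 11.7 CPM in the other PBS.AIR libraries. The 3 PBS.CS libraries were singled out after their values were seen, and no test was made of these patterns. The parts of tissue content and hour of collection in them were not tested. Without the 6 libraries over 30 CPM of cartilage markers, 420 genes were called, 313 of them higher. In that fit 5 of the AhR genes, 13 of the NRF2 genes, 12 of the neutrophil chemokine genes, 23 of the lipid-laden macrophage genes and 17 of the acute phase genes were higher at the adjusted p-value, against 7, 16, 11, 23 and 16 with all libraries. Neutrophil markers stood at 9 against 13 and xenobiotic enzymes that fell at 3 against 7. The 3 libraries also lay among the 4 PBS.CS libraries with codes over X120. In the fit of codes up to X120 the log2FC was 1.59 for Nqo1, 2.41 for Cyp1a1, 2.94 for Mmp12 and 3.70 for Lcn2, and in that of codes over X120 it was 3.06, 4.35, 1.78 and 1.46, each past the threshold by limma-voom. Of the neutrophil markers 13 of 17 were higher with codes up to X120 and 0 with codes over X120, where the fit holds fewer libraries, and the difference between the 2 fits was not tested.

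**Figure D4:**
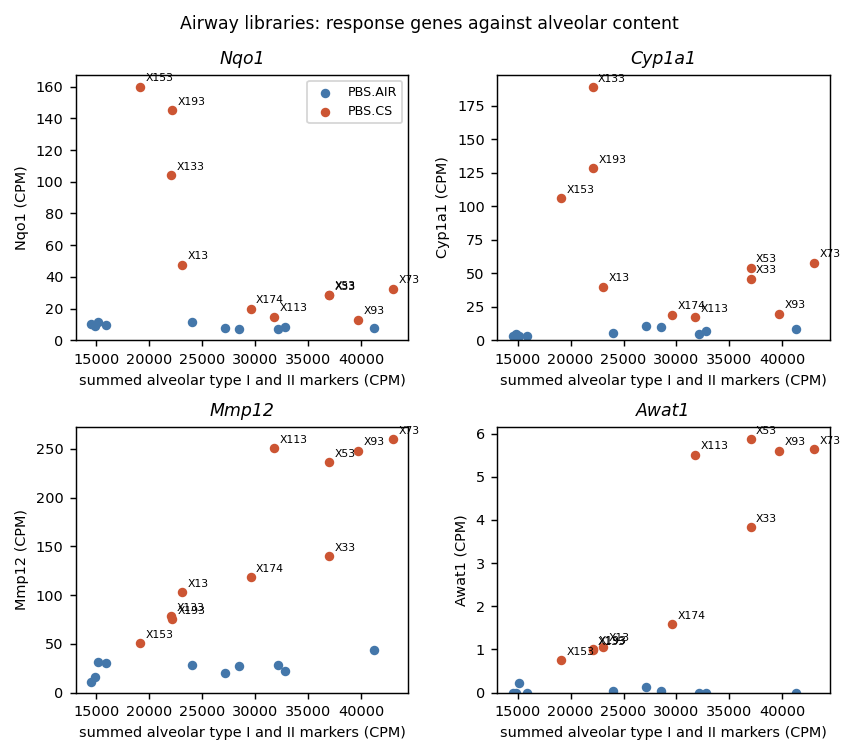
Levels of Nqo1, Cyp1a1, Mmp12 and Awat1 in CPM (vertical axes) against the summed level of 25 alveolar type I and II markers in CPM (horizontal axes), each point 1 airway library, blue for PBS.AIR and red for PBS.CS with its code. Nqo1 and Cyp1a1 are highest in X133, X153 and X193, which lie at the low end of alveolar content among smoke-exposed libraries, while Mmp12 and Awat1 are lowest there.

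In the parenchyma smoke exposure moved most of these genes in the same direction, and some by more. Of the 288 genes called higher in the airway, 284 had a log2FC above 0 in the parenchyma, with a median of 1.86 against 1.48 in the airway, on libraries that the choice of genes did not use but that may come from the same mice. The genes called lower in the airway had a median log2FC of -0.81 in the parenchyma against -1.27 in the airway, where the choice of genes favours the airway, and 84.4% of those tested had a log2FC below 0. The difference between tissues itself passed the test for 680 of 18250 genes (3.73%), 555 with a smaller or more negative effect in the airway and the others the other way. Pigr had the smallest p-value: smoke changed it by a log2FC of 1.18 in airway and 3.21 in parenchyma libraries (adjusted p = 2.1e-14 for the difference), where its median went from 88.9 to 848 CPM. The metalloreductase gene Steap4 (log2FC 1.20 and 2.94, adjusted p = 1.1e-10) showed the same order. Of the acute phase list 11 of 28 genes and of the ciliated cell list 17 of 28 genes had a smaller or more negative effect in the airway. The ciliated cell list had opposite directions, with a median log2FC of -0.298 in airway and 0.405 in parenchyma libraries. So did the club cell list, with medians of -0.177 and 0.587. Of the AhR targets, Cyp1b1 had the log2FC 1.30 in airway and 2.42 in parenchyma libraries (adjusted p = 0.0059 for the difference). Cyp1a1 (log2FC 3.19 and 2.91, adjusted p = 0.92), Ahrr (log2FC 2.45 and 2.42, adjusted p = 0.98) and Nqo1 (log2FC 2.19 and 1.97, adjusted p = 0.88) did not pass the test of the difference.

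In mice that also received HDM the airway response to smoke had another make-up. The difference of the smoke effect between HDM and PBS mice passed the test for 2845 of 18015 genes (15.8%). The 288 genes called higher with smoke in PBS mice had a median log2FC of 0.006 in HDM mice. Saa3 had a log2FC of -0.17 in HDM mice against 3.44 in PBS mice (adjusted p = 1.4e-07 for the difference), Cxcl5 of 0.20 against 3.45 (adjusted p = 1.1e-04) and Mmp12 of -0.77 against 2.48 (adjusted p = 7.2e-08). These genes were already high in HDM mice without smoke, with HDM.AIR medians of 316 CPM for Saa3, 140.97 CPM for Cxcl5, 1754 CPM for Lcn2 and 1523 CPM for Mmp12, each above its median with smoke alone. The AhR and NRF2 targets Cyp1a1 (log2FC 5.39, adjusted p = 0.25 for the difference), Ahrr (log2FC 2.07, adjusted p = 0.49), Nqo1 (log2FC 2.53, adjusted p = 0.76) and Ugt1a6a (log2FC 1.20, adjusted p = 0.77) did not pass that test. Slc7a11 passed it, with a log2FC of -0.27 in HDM mice (adjusted p = 5.2e-07). Over the whole NRF2 list of 32 genes, 4 had a larger and 10 a smaller or more negative smoke effect with HDM, and of the 12 AhR genes 1 had a smaller one.

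In PBS mice given DEX, 274 of the 288 genes called higher without DEX had a log2FC above 0. In all, 8 of 18015 genes (0.0444%) passed the test of a difference between smoke effects with and without DEX in the limma-voom fit, and 25 did with DESeq2. Among the 8 were Gpnmb, with a log2FC of 0.60 under DEX against 2.67 without it (adjusted p = 0.0029), Clmp (0.64 against 1.73, adjusted p = 0.0029), Cd200r2 (1.01 against 5.03, adjusted p = 0.018) and Cxcr1 (-0.90 against 2.77, adjusted p = 0.033). Cyp1a1 (2.76), Ahrr (2.79), Nqo1 (2.20) and Saa3 (2.90) had log2FC under DEX whose difference from that without DEX did not pass the test. Over the same 288 genes the median log2FC was 0.86 under DEX against 1.48 without it, a comparison in which the choice of genes favours the setting without DEX.

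**Figure D5:**
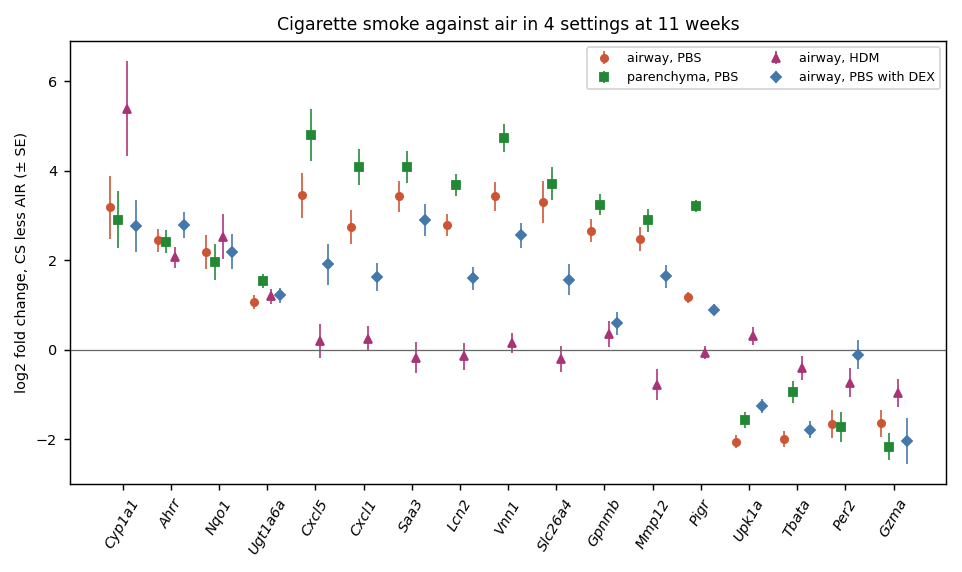
The log2 fold change of smoke against air (vertical axis, points, with bars of 1 SE) for 17 genes in 4 settings at 11 weeks, each with 10 smoke-exposed and 10 air-exposed libraries: PBS airway (circles), PBS parenchyma (squares), HDM airway (triangles) and PBS airway with DEX (diamonds). Cyp1a1, Ahrr, Nqo1 and Ugt1a6a are above 0 in all 4 settings, while Saa3, Lcn2, Cxcl5 and Slc26a4 lie near 0 in HDM airways only.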

How the data were processed

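Airway and parenchyma tissue of female mice was profiled by RNA sequencing. Per the labels, RNA was extracted with TRIzol. The submitters' processing notes name bcl2fastq 2.20.0.422, STAR 2.5.1b, RSEM 1.2.31, kallisto 0.44.0 and the build mm10, without saying which tool made the table. The deposited values are estimated counts per gene made by the authors, not normalized (43346 identifiers, of which 20.3% of non-zero values are not whole), and they were rounded here to whole numbers. Positions come from GENCODE M21 (GRCm38), in which 42462 identifiers matched without their version number.

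All 80 airway libraries at 11 weeks (8 groups of 10) were fitted together with limma-voom (limma 3.58.1, edgeR 4.0.16, R 4.3.3) after scaling by the trimmed mean of M values, with 1 mean per group and Benjamini-Hochberg adjustment over 18015 genes. A gene was kept when 9 or more libraries reached the CPM that equals 10 counts at the median total. Tissue differences came from a fit of 160 libraries and 18250 genes. DESeq2 1.42.0 and edgeR's quasi-likelihood test were alternatives, beside other filters, scalings, sample sets and covariates and each library left out. Components were tested with scipy 1.17.1. Covariates of alveolar and cardiac content, and leaving out libraries over 30 CPM of cartilage markers, were added after the data were seen, as were a block for each run of 20 library codes and fits of codes up to X120 and over X120. No 2 libraries of a group were duplicates: the lowest chi-square per degree of freedom was 14.79 over 45 pairs of PBS.AIR libraries and 29.63 over 45 pairs of PBS.CS libraries. The fit was also run on simulated counts. These were drawn for each gene independently, without shared variation in tissue content or clock genes, so that run does not bear on the calls given here.

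The gene lists (44 lists, 819 genes, 815 matched) and the groups were chosen with earlier results of these data known, so the lists are described by counts and medians. The planned test of summed marker levels was not used for the same reason, and ranges are given. Named genes were the 10 largest called changes in each direction with a mean of at least 1 CPM in either group, the 5 smallest p-values in each direction, up to 6 members of each list with the largest changes past the threshold together with members needed to say what a list did, and the 5 smallest p-values of each difference between settings. Promoters are RefSeq sequences of the 4 called members of the AhR and NRF2 lists with the largest rises. Total counts were from 23368612 to 34962379 in the 20 airway libraries compared. Genes at low CPM rest on fewer reads than the others and carry the larger errors.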

Additional observations from a re-analysis of the deposited data

Results flagged for a closer look

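In 304 groups of 10 values, each the level of 1 named gene or a component score in 1 group of airway libraries, 16 held a library far from the other 9, by Dixon's criterion on log2(CPM + 0.5). Chance flags about 1 in 20 groups, so a number of this size carries no weight by itself. Among PBS.CS libraries, X93 was the lowest for Serpina3n (55.8 CPM), C3 (837 CPM) and Ackr1 (1.88 CPM), X174 was the highest for Igha (821 CPM) and Clec9a (13.3 CPM), X33 was the highest for Upk1a (1.27 CPM) and Cmpk2 (25.5 CPM), and X133 was the highest for Fmo2 (881 CPM). Among PBS.AIR libraries, X5 was the lowest for Ccl3 (0.508 CPM) and the highest for Il13 (0.181 CPM), X165 was the highest for Ly6g (0.555 CPM) and the lowest for Tbata (5.26 CPM), X125 was the highest for Vnn1 (9.20 CPM) and Il17a (0.721 CPM), X145 was the lowest for Slc26a4 (0.970 CPM), and X65 was the highest for Ighm (1001 CPM).

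The 33 genes looked at here were chosen for the largest changes or the smallest p-values with smoke alone, or for the 5 smallest p-values of each difference between settings, so the counts and many of the directions below were fixed in part by that choice. Of these, 9 differed in their smoke effect between airway and parenchyma by limma-voom (3.73% of all genes did), all with a smaller or more negative effect in the airway. They include Cd14, the co-receptor for bacterial lipopolysaccharide, and Slc11a2, an iron importer. The differences in log2FC, airway less parenchyma, were Tbata -1.05 (adjusted p = 0.022), Hpgds -0.96 (adjusted p = 0.0033), Pigr -2.04 (adjusted p = 2.1e-14), Steap4 -1.74 (adjusted p = 1.1e-10), Cd14 -1.58 (adjusted p = 1.1e-08), Slc11a2 -0.86 (adjusted p = 1.1e-08), Abcc8 -2.97 (adjusted p = 1.1e-07), Tnip1 -0.35 (adjusted p = 0.036) and Osbpl10 -0.74 (adjusted p = 4.4e-04).

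In 24 of the 33 genes the airway smoke effect differed between HDM and PBS mice by limma-voom, against 15.8% of all genes. Genes that rose with smoke in PBS mice had the smaller effect with HDM, with differences in log2FC (HDM less PBS) of Awat1 -4.27 (adjusted p = 0.03), Cd200r2 -3.47 (adjusted p = 0.0036), Cxcl5 -3.26 (adjusted p = 1.1e-04), Saa3 -3.61 (adjusted p = 1.4e-07), Vnn1 -3.28 (adjusted p = 1.2e-08), Slc26a4 -3.51 (adjusted p = 3.3e-06), Orm2 -2.97 (adjusted p = 2.0e-05), Lcn2 -2.94 (adjusted p = 7.2e-08) and Clmp -1.77 (adjusted p = 1.0e-10). The same direction held for Hpgds -1.51 (adjusted p = 3.2e-09), Gpnmb -2.30 (adjusted p = 1.8e-05), Pigr -1.24 (adjusted p = 4.3e-06), Steap4 -1.36 (adjusted p = 1.3e-06), Cd14 -0.98 (adjusted p = 1.2e-04), Tnip1 -0.83 (adjusted p = 1.8e-09) and Pla2g7 -1.46 (adjusted p = 6.8e-09), Pla2g7 being a lipase of macrophages that cleaves platelet-activating factor. Genes that fell with smoke in PBS mice differed the other way, with Bcan 1.37 (adjusted p = 0.044), Upk1a 2.36 (adjusted p = 1.3e-10), Tbata 1.59 (adjusted p = 2.5e-04), Kcnip4 1.62 (adjusted p = 1.1e-04), Ppp2r2c 1.19 (adjusted p = 1.9e-04), Slc11a2 0.51 (adjusted p = 0.0039), Gpr155 1.31 (adjusted p = 0.0014) and Osbpl10 0.83 (adjusted p = 1.1e-04).

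Between mice with and without DEX, 6 of the 33 genes differed in their airway smoke effect by limma-voom, 5 of them chosen for that difference, against 8 (0.0444%) of all genes. The differences in log2FC (DEX less no DEX) were Cd200r2 -4.02 (adjusted p = 0.018), Cxcr1 -3.67 (adjusted p = 0.033), Clmp -1.09 (adjusted p = 0.0029) and Gpnmb -2.07 (adjusted p = 0.0029) for genes that rose with smoke alone, and Gpr155 1.57 (adjusted p = 0.01) and Osbpl10 0.74 (adjusted p = 0.01) for genes that fell with it.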

How the results depend on the processing

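Of the genes tested, 2.35% were called (424), 67.9% of them higher. With a minimum of 10 CPM in 9 libraries, which tests fewer genes, 1.25% were called (150), 82.7% of them higher and 26 lower. The share of higher genes was 83.6% with an alveolar covariate (486 higher) and 79.9% with a cardiac covariate (87 lower), and fitting only the 20 libraries left 84 lower. At the adjusted p-value alone (1210 and 862), the alveolar covariate gave 1856 and 1573, and the 20 libraries gave 509 lower. Leaving out each library in turn gave 2.0% to 2.8% of genes called, 59.5% to 71.3% of them higher (2.8% and 59.5% without PBS.AIR replicate X85), 917 to 1275 higher and 669 to 964 lower at the adjusted p-value. The 680 genes that differed between tissues became 388 with the 10 CPM minimum and 1034 with DESeq2, and the 8 that differed with DEX became 25 with DESeq2 and 2 when 40 libraries were fitted. Some of these fits hold fewer genes or libraries, and the cause of the changes was not tested. Over the named genes, 4621 of 4976 values kept their direction and side of the threshold, 77 genes lost the threshold under at least 1 alternative, 16 values gained it, and 78 changed sign. Nr1d1 passed the test and changed sign with codes over X120 (log2FC -0.99). The other changes of sign were in genes that did not pass it. With the alveolar covariate these were Foxj1 (log2FC 0.04), Ahr (-0.14), Siglecf (-0.05), Il33 (-0.07), Ighm (0.48), Muc5ac (0.07), Spdef (0.19) and Sftpc (-0.47). Sftpc is itself part of the summed level used as that covariate, so its change there carries no weight. It was past the threshold in that fit (adjusted p = 5.4e-09 by limma-voom). With the cardiac covariate the changes of sign were Ahr (-0.10), Il33 (-0.04), Ighm (0.42), Spdef (0.09) and Sftpc (-0.33). With DESeq2 and edgeR they were Ahr (-0.03 with both), Mpo (-0.30 and -0.26) and Sftpc (-0.08 with both). Without the libraries over 30 CPM of cartilage markers they were Ahr (-0.07), Mpo (-0.22), Il13 (0.39), Muc5ac (0.23), Spdef (0.05) and Sftpc (-0.08), and with sample quality weights Ahr (-0.05), Ighm (0.10), Muc5ac (0.02) and Sftpc (-0.04). Leaving out 1 library in turn gave log2FC from -0.05 to 0.07 for Ahr, -0.13 to 0.30 for Mpo, -0.02 to 0.39 for Ltf, -0.16 to 0.20 for Ighm, -0.32 to 0.03 for Muc5ac, -0.18 to 0.05 for Spdef and -0.10 to 0.14 for Sftpc. The second component separated the groups in each alternative. With codes over X120 alone, which leave 4 libraries a group, 1.05% of genes were called (75 lower), and 226 were higher and 221 lower at the adjusted p-value. With codes up to X120, 547 were lower. Changes of sign there were Siglecf (-0.02), Il33 (-0.37), Spdef (0.19) and Sftpc (-0.20) with codes over X120, and Ahr (-0.08), Ltf (-0.38), Ear1 (0.03) and Ighm (0.00) with codes up to it. The labels pair no libraries, but codes run in 10 stretches of 20 that each hold 1 library of every group at 11 weeks. Of the 10 pairs of PBS.AIR and PBS.CS libraries in the same stretch, 8 deviated together with a correlation over 0.1 and 3 correlated best with their own stretch, which is a hint from the data and not the design. With this replicate block 476 genes were called, and 1161 genes differed between tissues and 23 with DEX, Ighm turned to 0.01, and Il17a (adjusted p = 0.008) and Il17f (0.0084 by limma-voom) passed the threshold.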

Other observations

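Some genes of growth, lipid synthesis and stress passed the test in smoke-exposed airways, where 6.72% of all genes tested rose and 4.78% fell. Of 28 cell cycle genes 2 rose, the cyclin genes Ccnb1 (log2FC 0.78, adjusted p = 0.035) and Ccnb2 (log2FC 0.68, adjusted p = 0.046), and none fell. Both missed the threshold with edgeR (adjusted p = 0.17 and 0.13) and without PBS.AIR replicate X25 (0.10 and 0.12 by limma-voom). In all, 26 of the 28 were above 0 (median log2FC 0.42) and 15 were at an unadjusted p under 0.05. In the cholesterol and fatty acid synthesis list 5 of 29 rose and none fell, 26 had a log2FC above 0 and the median was 0.20. Among the rises was Dhcr7, which makes the last step to cholesterol (log2FC 0.60, adjusted p = 3.2e-04). Of 24 stress and unfolded protein response genes 3 rose, with Gdf15 the furthest. In the glucocorticoid target list 2 of 16 fell, Tsc22d3, the gene of GILZ (log2FC -0.75, adjusted p = 0.018), and Klf9 (log2FC -0.40, adjusted p = 0.04), and 1 rose, Lcn2. Without PBS.AIR replicate X165 the adjusted p was 0.055 for Tsc22d3 and 0.12 for Klf9 by limma-voom. With codes up to X120 the log2FC was -0.29 for Tsc22d3 (adjusted p = 0.31 by limma-voom) and -0.10 for Klf9 (adjusted p = 0.66). They were not past the threshold in 3 and 13 of 34 alternatives. Of 17 immediate early genes 3 fell, Fosb by 1.19 on the log2 scale (adjusted p = 6.5e-05) among them, and 1 rose. Among 21 junction and barrier genes the claudin genes Cldn23 (log2FC -0.74, adjusted p = 9.8e-04) and Cldn8 (log2FC -0.70, adjusted p = 0.0046) fell, while Tjp3, a tight junction scaffold, rose (log2FC 0.54, adjusted p = 0.02, and 0.086 without PBS.AIR replicate X185).

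Other cell types of the dissected tissue changed to unequal extents by list, against 6.72% of all genes tested that rose and 4.78% that fell. In the list of 20 endothelial genes 3 rose, the chemokine-binding receptor of venules Ackr1 the furthest (log2FC 1.03, adjusted p = 0.017, and 0.057 without PBS.AIR replicate X85), and 1 fell, Vwf, which encodes von Willebrand factor (log2FC -0.56, adjusted p = 0.021). Of 7 erythroid genes 2 rose, and of 13 dendritic cell genes 4 rose, among them Ccl22 and Ccl17, and 1 fell. In the thyroid and parathyroid list 1 of 4 tested genes fell, in the thymocyte list 1 of 7, and in the skeletal muscle list 2 of 10 rose and 2 fell. With limma-voom 0 genes passed the threshold in the lists of basal and squamous epithelium (2 at an unadjusted p under 0.05), neuroendocrine and tuft cells (4), alveolar type I cells (2), cartilage (1), airway smooth muscle (0), eosinophils and mast cells (0), adipose tissue (0), and Schwann cells and nerve (0). With edgeR and DESeq2 the same lists had 0 genes past it, except 1 higher neuroendocrine or tuft cell gene.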
